A study of Mus musculus with 56 samples.

Results

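Mitochondrial ribosomal protein genes were examined in CD4+ T helper (TH) cells and regulatory T (Treg) cells labelled as knockouts (KO) of ornithine decarboxylase (ODC) or deoxyhypusine hydroxylase (DOHH). The genes were chosen by symbol alone, as the protein-coding mouse genes named Mrpl or Mrps followed by a number. The rule matched 78 of the 47937 genes listed in each count table. Mrpl2, with 9668 counts in the Odc and 0 in the Dohh table, and Mrpl33, with 13568 and 1, were left out because 1 table held almost no counts for them. The remaining 76 members lie on 17 chromosomes and comprise 49 proteins of the large ribosomal subunit (Mrps18a and Mrps30 among them, despite their symbols), 26 of the small subunit and Mrps36. Mrps36 keeps its symbol but is now known as a subunit of the alpha-ketoglutarate dehydrogenase complex. Mrpl53, at 41 and 0 counts in the Odc and Dohh tables, did not pass the filter on low counts, which left 75 members tested. Over 10% of the exon length is shared with a gene on the opposite strand in 14 members, whose reads could not be told apart if strand was ignored in counting, and with a gene on the same strand in 5.

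The libraries came from CD4+ T cells, isolated from spleen and lymph nodes by negative selection, of C57BL/6 mice from crosses of CD4Cre mice with Odc flox/flox or Dohh flox/flox mice. Cre- mice gave the WT libraries and Cre+ mice the libraries labelled KO, here called Odc-/- and Dohh-/-. In CD4Cre mice, Cre is driven by the CD4 promoter and acts in developing T cells that express Cd4, so that CD8+ T cells are targeted as well. All cells were activated with anti-CD3, anti-CD28 and IL-2 and analysed on day 4 of polarization. TH1 cells received IL-12, IL-2 and anti-IL-4, TH2 cells IL-4, IL-2 and anti-IFN-γ, TH17 cells IL-6, TGF-β, IL-1β, anti-IFN-γ and anti-IL-4, and Treg cells TGF-β, IL-2, anti-IFN-γ and anti-IL-4. The Odc table held 31 libraries, 4 per group except 3 for Odc-/- TH2 cells, and the Dohh table held 24, with 3 per group. The labels call the replicates biological, and the study's methods describe mice of a young adult age. ODC makes putrescine, the precursor of spermidine. Spermidine supplies the side chain of hypusine, an amino acid found in the translation factor eIF5A, and DOHH completes hypusine.

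The mitochondrial ribosome (mitoribosome) translates the few messenger RNAs of the mitochondrial genome, all of which encode subunits of the respiratory chain and of ATP synthase. Its ribosomal RNAs come from mitochondrial DNA, whereas its proteins are encoded in the nucleus, made in the cytosol and imported. Some of these proteins have a counterpart in the bacterial ribosome, and the others arose in the mitochondrial lineage. The large subunit forms the peptide bond and the small subunit reads the messenger RNA. T cells expand their mitochondria when they leave quiescence, and mitochondrial translation is part of that growth.

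Total counts ranged from 6978044 to 9145214 in WT and from 5905374 to 8012659 in Odc-/- libraries. For the Dohh mice the ranges were 8328721 to 12576933 in WT and 6572148 to 11199597 in Dohh-/- libraries. Only some exons of each targeted gene are flanked by loxP sites, and counts of whole Odc1 and Dohh genes did not check the labels, whereas the study examined both proteins by immunoblot. In CPM (counts per 1000000 counts of a library, its total scaled by TMM), Odc1 lay at 357 to 860 CPM in WT and at 424 to 680 CPM in Odc-/- libraries, and Dohh at 31.5 to 45.9 CPM in WT and 45.2 to 148 CPM in Dohh-/- libraries. Dohh was higher in Dohh-/- TH1, TH2 and Treg cells by 1.43, 1.1 and 1.15 on the log2 scale, and Odc1 was lower in Odc-/- TH17 cells alone, by 0.40 (adjusted p = 0.0416 in edgeR). Dohh was higher in Odc-/- TH1, TH2, TH17 and Treg cells too, by 1.26, 1.17, 0.62 and 1.11. The summed CPM of 9 T cell markers (Cd3e, Cd4, Lck and others), none of them at 0 in any library, was 2710 to 4840 in WT and 1980 to 3830 in Odc-/- libraries, and 4120 to 4770 and 1990 to 3840 in the Dohh table. Markers of other cells were higher in many labelled KO libraries. Summed markers of basophils and mast cells were 4.67 to 47.0 CPM in WT and 26.6 to 339 CPM in Odc-/- libraries, against 2.96 to 23.4 and 48.9 to 1210 CPM for Dohh. Summed myeloid markers were 7.99 to 48.4 CPM in WT and 8.40 to 380 CPM in Odc-/- libraries, against 20.4 to 36.7 and 7.36 to 4700 CPM for Dohh. Markers of CD8 T and NK cells reached 91.6 CPM in WT and 557 CPM in Odc-/- libraries, and were 23.9 to 41.3 and 59.3 to 688 CPM for Dohh. B cell markers reached 561 CPM in Odc-/- libraries and 105 in WT, and platelet markers 620 CPM in Dohh-/- libraries. Negative selection is meant to remove such cells before culture. The part of other cells in the results below was not tested beyond the libraries left out there. In bulk samples, a larger share of cells with high levels and more RNA per cell cannot be told apart.

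The members together held a larger share of all counts in every labelled KO group. In TH1 cells of the Odc table, the share was 0.231, 0.252, 0.257 and 0.313% in the WT libraries and 0.322, 0.428, 0.409 and 0.419% in the Odc-/- libraries. In TH1 cells of the Dohh table it was 0.291, 0.315 and 0.330% in WT and 0.551, 0.773 and 0.378% in Dohh-/- libraries. Every labelled KO library thus lay above every WT library of its group, and the same held in the other 3 subsets of both tables. The mean share rose from 0.263 ± 0.0349% (SD, n = 4) to 0.395 ± 0.0488% (n = 4) in Odc-/- TH1 cells and from 0.312 ± 0.0201% (n = 3) to 0.567 ± 0.198% (n = 3) in Dohh-/- TH1 cells. The ratio of the means was 1.50, 1.51, 1.36 and 1.49 in Odc-/- TH1, TH2, TH17 and Treg cells and 1.82, 1.56, 1.50 and 1.53 in Dohh-/- cells. No test was made on this sum.

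**Figure D1:**
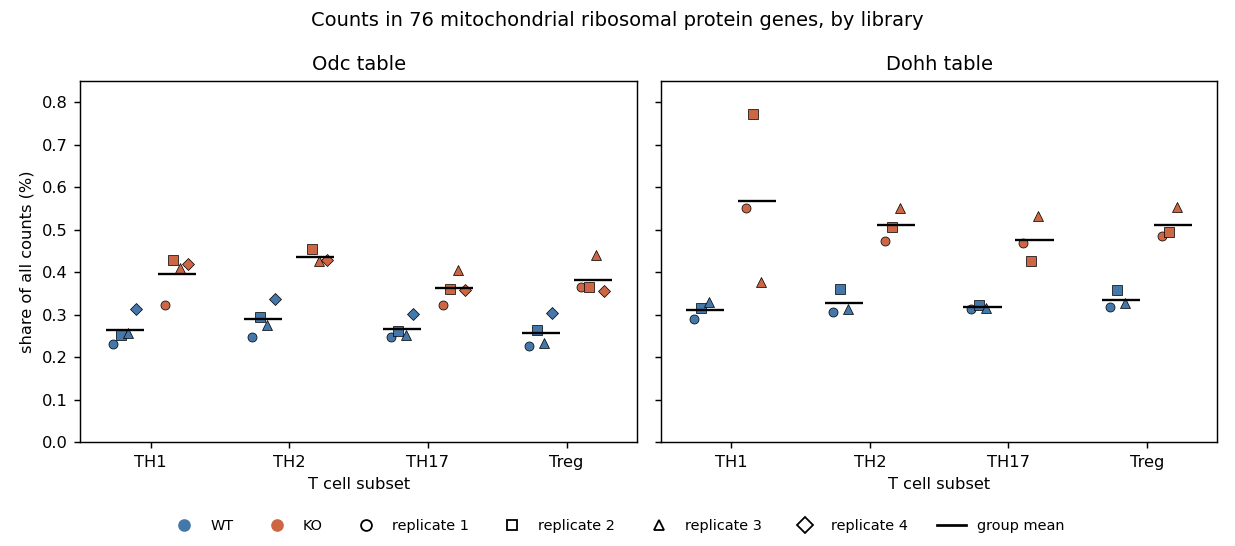
Share of all counts held by the 76 members (%, y axis) in each library, by T cell subset (x axis), for Odc (left) and Dohh mice (right). Blue symbols are WT and orange symbols labelled KO libraries, the shape gives the replicate number and bars give group means. Labelled KO libraries lie above WT libraries in each subset, and Dohh-/- TH1 libraries spread from 0.378 to 0.773%.

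Libraries within a group differed together over the members. The WT library of replicate 4 was the highest WT library for 61, 58, 59 and 62 of 75 members in TH1, TH2, TH17 and Treg cells of the Odc table, or 81.3, 77.3, 78.7 and 82.7%, against 37.1, 36.3, 36.6 and 39.6% of all genes. The Odc-/- TH1 library of replicate 1 was the lowest of its group for 63 members, against 39.1% of all genes. In Dohh-/- TH1 cells, replicate 2 was the highest for 70 members and replicate 3 the lowest for 71, against 36.6 and 34.5% of all genes. Other libraries stood apart too. Odc-/- Treg replicate 3 was the highest of its group for 67 members (29.3% of all genes). Replicate 2 of Dohh WT TH2 and Treg cells was the highest for 66 and 65 (29.5 and 34.9%).

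Most members were expressed at a higher level in cells labelled KO, whichever gene was targeted. In Odc-/- cells, 56 of the 75 members rose in TH1, 53 in TH2, 51 in TH17 and 61 in Treg cells at an adjusted p below 0.05 in edgeR's quasi-likelihood test, where 29.1, 29.9, 25.6 and 32.9% of all genes rose. In Dohh-/- cells, 71, 50, 40 and 48 members rose, against 25.9, 23.8, 27 and 28.4% of all genes. Few members fell, 1, 2, 1 and 2 in Odc-/- cells, where 27.7, 29.3, 22.2 and 26.9% of all genes did, and 0, 0, 3 and 0 in Dohh-/- cells, where 24.1, 21.5, 24.9 and 25% did. The median log2 fold change of the members was 0.64, 0.64, 0.44 and 0.63 in Odc-/- and 1.16, 0.74, 0.60 and 0.76 in Dohh-/- cells, beside medians of all genes of at most 0.07.

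In Odc-/- cells, most increases were below 2-fold. Increases over 2-fold were called for 12, 11, 4 and 13 members in Odc-/- TH1, TH2, TH17 and Treg cells, and such increases were called for 10.2, 11.5, 8.35 and 13.9% of all genes. They were called for 45, 19, 17 and 25 members in Dohh-/- cells, against 14.8, 14.3, 17.3 and 17.5% of all genes. No member was called lower by over 2-fold, where 11.3, 13.6, 7.21 and 10.1% of all genes were in the Odc and 14.2, 11.6, 14.1 and 15.2% in the Dohh comparisons.

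These counts were repeated without the libraries that stood apart. The Dohh-/- TH17 libraries of replicates 2 and 3 and the Dohh-/- Treg libraries of the same replicates held summed myeloid markers of 4695, 1842, 3145 and 2030 CPM. Without both of them, 17 members rose in Dohh-/- TH17 and 13 in Dohh-/- Treg cells, at medians of 0.64 and 0.70, where 13.9 and 13.4% of all genes rose, and 11 and 10 rose over 2-fold, where 9.88 and 10.2% of all genes did, with a single Dohh-/- library left in each group that is assumed to vary like the other groups. In Dohh-/- TH2 cells, 29 to 44 members rose when any 1 library was left out, against 18.1 to 21% of all genes. Without the Dohh-/- TH1 library of replicate 2, 56 members rose in TH1 cells and 19 of them over 2-fold, at a median of 0.73, where 21 and 10.3% of all genes did. Over 2-fold increases in Dohh-/- Treg cells were called for 13, 15 and 16 members without WT replicate 3, WT replicate 1 or Dohh-/- replicate 3, against 15.1, 14.8 and 14.3% of all genes. Without the 4 WT libraries of replicate 4, 57, 56, 56 and 64 members rose in Odc-/- TH1, TH2, TH17 and Treg cells (31, 31.3, 29.5 and 35.5% of all genes), and 23, 18, 7 and 22 rose over 2-fold (12.3, 13, 9.85 and 16.3% of all genes).

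**Figure D2:**
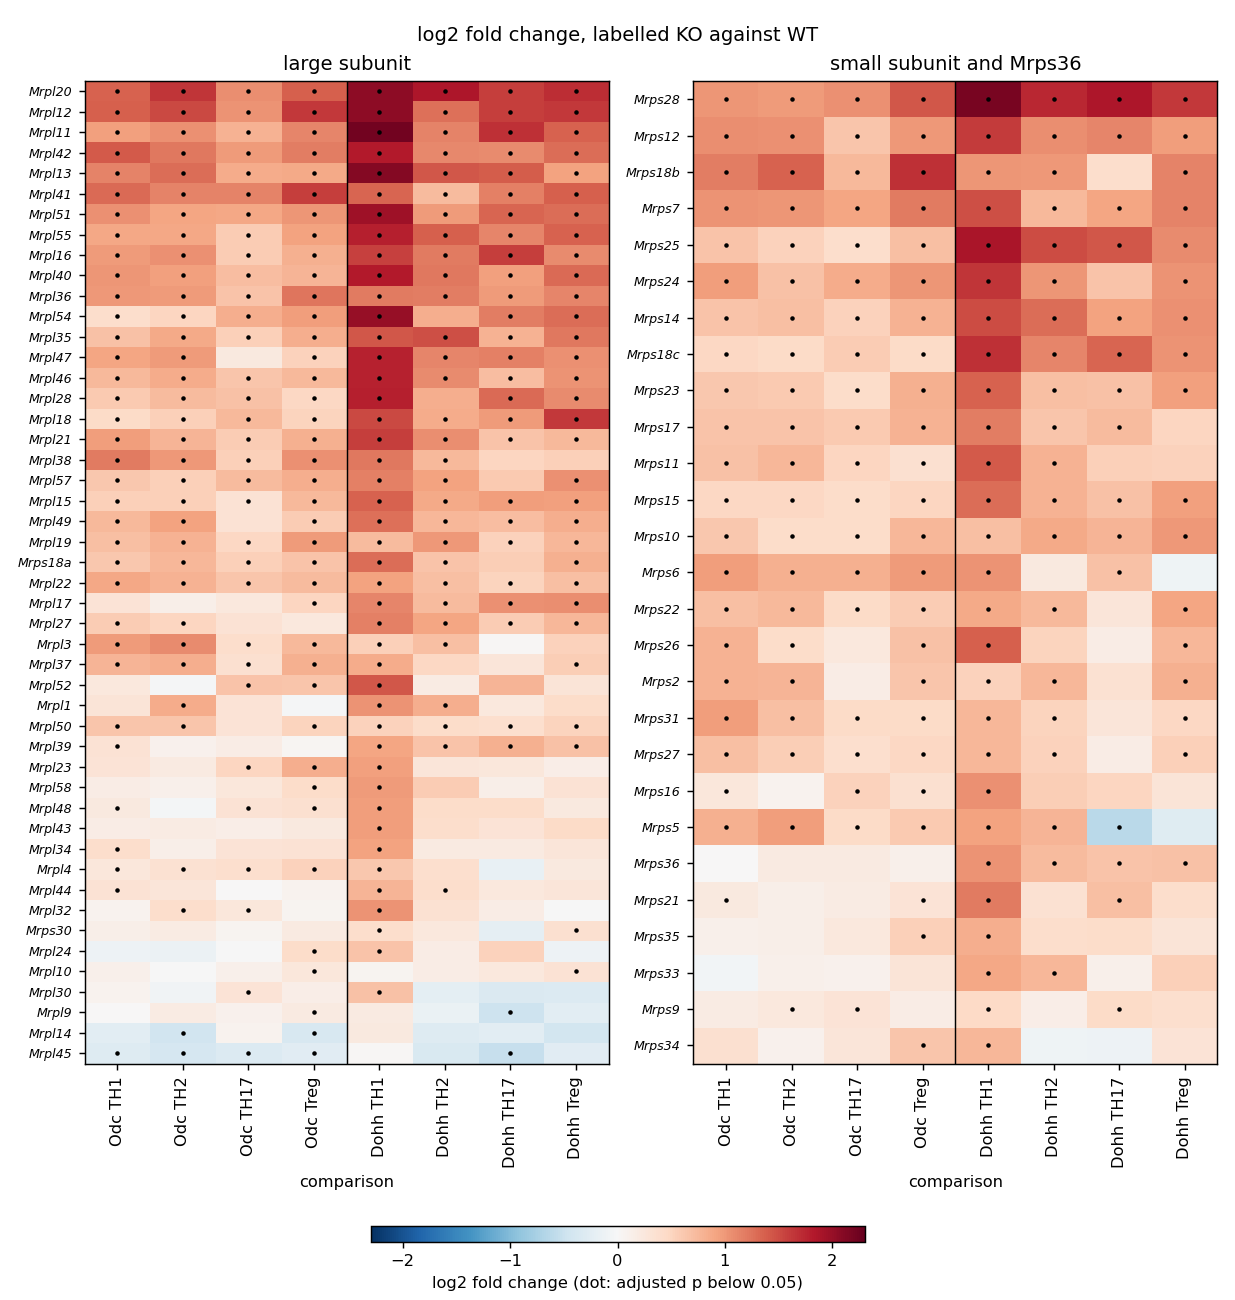
Log2 fold change (colour) of each tested member in the 8 comparisons of labelled KO with WT, for the large subunit (left) and for the small subunit with Mrps36 (right), rows ordered by the mean over the comparisons. Dots mark an adjusted p below 0.05 in edgeR. Red, for higher in labelled KO, fills nearly all rows, and Mrpl14 and Mrpl45 are at the bottom.

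Across the 8 comparisons, 27 of 75 members (36%) rose in each one, where 6.1% of the 12924 genes tested in both tables did. The 4 Odc comparisons were passed together by 44 members and the 4 Dohh comparisons by 34, against 12.1 and 11.8% of these genes. Altogether 73 members rose at least once, where 57.7% of the genes did, and the log2 fold change of 59 members was above 0 in all 8 comparisons, where that of 21.8% of the genes was. Every Odc-/- library lay above every WT library for 40, 54, 46 and 53 members in TH1, TH2, TH17 and Treg cells, and for 21.9, 30.6, 21.5 and 25.2% of all genes. Every Dohh-/- library did so for 62, 63, 52 and 56 members, and for 23.7, 31.9, 29.9 and 34.3% of all genes. Over 2-fold increases were called at least once for 46 members and 32.5% of the genes, and in all 8 comparisons for Mrpl20 and Mrpl12 and 1.28% of the genes. Whether libraries of different subsets came from the same mice is not given, so these are not counts over independent experiments. The counts of 27 and 34 rest on all libraries. Without both libraries with high myeloid markers they are lower, since Mrpl11, Mrpl12, Mrps12 and other members lost their calls in Dohh-/- TH17 and Treg cells.

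Mrpl20 and Mrpl12 head the large subunit. Mrpl20 (ENSMUSG00000029066.12, GRCm38 chr4:155802878-155809975, plus strand) is the counterpart of bacterial L20, a protein that binds the ribosomal RNA early in assembly. Mrpl12 (ENSMUSG00000039640.7, chr11:120484613-120489065, plus strand) forms the flexible stalk that draws translation factors to the ribosome. Their promoters are printed because these are the members called over 2-fold in every comparison, and the promoter of Mrpl45 because that member fell in the most comparisons. Each runs from 250 bases before to 50 bases after the RefSeq start on GRCm38.p6, at chr4:155802628-155802927, chr11:120484387-120484686 and chr11:97315466-97315765, all on the plus strand. Capitals mark the E-box CACGTG and the letters CCAAT in the promoter of Mrpl20 and 2 copies of TGCGCA, the short site of NRF1, in that of Mrpl45, and none of the motifs searched was in that of Mrpl12.
Mrpl20: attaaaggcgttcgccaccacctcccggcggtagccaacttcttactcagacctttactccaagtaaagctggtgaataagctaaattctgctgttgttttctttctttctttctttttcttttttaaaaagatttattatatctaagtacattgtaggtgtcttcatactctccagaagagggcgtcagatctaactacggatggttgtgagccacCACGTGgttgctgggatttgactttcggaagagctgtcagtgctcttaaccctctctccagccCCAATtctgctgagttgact
Mrpl12: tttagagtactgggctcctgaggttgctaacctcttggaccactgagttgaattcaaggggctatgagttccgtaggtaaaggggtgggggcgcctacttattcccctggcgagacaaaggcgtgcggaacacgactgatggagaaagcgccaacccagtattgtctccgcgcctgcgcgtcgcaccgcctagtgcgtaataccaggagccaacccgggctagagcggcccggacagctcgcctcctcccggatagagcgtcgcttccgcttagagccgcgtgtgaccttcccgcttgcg
Mrpl45: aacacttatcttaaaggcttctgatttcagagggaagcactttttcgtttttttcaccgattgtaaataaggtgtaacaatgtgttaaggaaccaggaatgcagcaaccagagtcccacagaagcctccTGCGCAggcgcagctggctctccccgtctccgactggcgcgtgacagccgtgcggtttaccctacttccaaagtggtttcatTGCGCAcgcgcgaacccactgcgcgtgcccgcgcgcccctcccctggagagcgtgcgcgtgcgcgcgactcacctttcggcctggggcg

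Mrpl20 was at 37.0, 37.0, 32.4 and 65.6 CPM in the WT libraries of TH1 cells in the Odc table and at 68.6, 124, 127 and 123 CPM in Odc-/- libraries. In the Dohh table it was at 34.9, 42.0 and 42.5 CPM in WT and at 176, 240 and 80.2 CPM in Dohh-/- TH1 libraries. The groups did not overlap, although the highest WT and the lowest Odc-/- library were close. The log2 fold change was 1.36 (SE 0.231, adjusted p = 3.05e-05 in edgeR) in Odc-/- and 2.05 (SE 0.257, adjusted p = 2.5e-06) in Dohh-/- TH1 cells. In Treg cells Mrpl20 was at 27.7, 34.6, 26.5 and 57.0 CPM in WT and at 90.8, 84.3, 117 and 85.2 CPM in Odc-/- libraries, and at 38.2, 51.2 and 40.9 against 129, 129 and 163 CPM in the Dohh table. Its log2 fold change ranged from 1.06 in Odc-/- TH17 to 2.05 in Dohh-/- TH1 cells, and was 1.69 (adjusted p = 9.47e-06) in the latter without replicate 2.

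Mrpl12 was at 46.2, 50.9, 53.6 and 78.9 CPM in WT and at 100, 174, 159 and 161 CPM in Odc-/- TH1 libraries. In Dohh-/- TH1 cells it was at 254, 649 and 117 CPM, against 72.4, 87.7 and 85.7 CPM in WT. The 649 CPM of replicate 2 is the highest value of any library for this gene. The log2 fold changes were 1.37 (SE 0.249, adjusted p = 6.5e-05 in edgeR) and 2.05 (SE 0.422, adjusted p = 0.000519), and the latter was 1.18 (adjusted p = 0.00718) without replicate 2. In Dohh-/- TH2 cells the call for Mrpl12 was lost without Dohh-/- replicate 3, WT replicate 1 or WT replicate 3 (adjusted p = 0.0709, 0.0518 and 0.0706). It was lost in Dohh-/- TH17 and Treg cells without both libraries with high myeloid markers (adjusted p = 0.0586 and 0.0845). Reads of Gm16755, a gene on the opposite strand, could add to those of Mrpl12 if strand was ignored in counting, since they share 13.1% of the exon length of Mrpl12.

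The other members of the stalks that carry translation factors moved unequally. Mrpl11, at the base of the stalk, rose in all 8 comparisons, with log2 fold changes from 0.80 in Odc-/- TH17 to 2.22 in Dohh-/- TH1 cells. In Dohh-/- TH1 cells Mrpl11 was at 68.9, 198 and 35.2 CPM, against 19.3, 19.3 and 26.2 CPM in WT, and its log2 fold change was 1.27 (adjusted p = 0.00558 in edgeR) without replicate 2. Its call in Dohh-/- TH2 cells was lost without any 1 of the 6 libraries (adjusted p = 0.0502 to 0.112), and in Dohh-/- Treg cells it was lost without Dohh-/- replicate 3 (adjusted p = 0.0687). Without both libraries with high myeloid markers it was lost in Dohh-/- TH17 and Treg cells (adjusted p = 0.113 and 0.198). Mrpl10, which anchors the copies of the Mrpl12 protein, rose in Treg cells of both tables, by 0.25 and 0.32 on the log2 scale, and passed in no other comparison. Both Treg calls of Mrpl10 were lost with RLE size factors (adjusted p = 0.0576 and 0.0613 for Odc and Dohh) and with total counts alone (0.0687 and 0.0611), and each was lost without at least 2 of the single libraries. Mrpl1, of the second stalk, rose in TH2 cells of both tables and in Dohh-/- TH1 cells, at log2 fold changes of 0.85, 0.83 and 1.03. The last was 0.60 without replicate 2, and its call was lost with only the 2 groups compared (adjusted p = 0.0593 in edgeR). The call of Mrpl1 in Dohh-/- TH2 cells was lost without WT replicate 1 (0.0531).

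Further large-subunit genes rose together with Mrpl20 and Mrpl12. Mrpl42, Mrpl13, Mrpl41, Mrpl51, Mrpl55, Mrpl16, Mrpl40 and Mrpl36 rose in all 8 comparisons. Mrpl42 rose by log2 fold changes of 0.98 to 1.82, Mrpl13 by 0.86 to 2.11, Mrpl41 by 0.73 to 1.59 and Mrpl51 by 0.89 to 1.94. The highest values of Mrpl42, Mrpl13 and Mrpl51, in Dohh-/- TH1 cells, were 1.28, 1.44 and 1.19 without replicate 2. Calls of Mrpl41 and Mrpl51 in Dohh-/- TH2 cells were lost without Dohh-/- replicate 3, WT replicate 1 or WT replicate 3 (adjusted p = 0.0575 to 0.127 in edgeR), and that of Mrpl13 in Dohh-/- Treg cells without the same replicates (0.0825 to 0.093). In Odc-/- TH17 cells the call of Mrpl16 was lost without Odc-/- replicate 2 or any of WT replicates 1, 2 and 3 (0.0684 to 0.102), and that of Mrpl55 without WT replicate 3 (0.0725). Without both libraries with high myeloid markers, calls were lost in Dohh-/- TH17 cells for Mrpl41, Mrpl51 and Mrpl55 (0.0659, 0.0542 and 0.0544) and in Dohh-/- Treg cells for Mrpl13, Mrpl51 and Mrpl16 (0.221, 0.062 and 0.08). No single library left out ended a call of Mrpl20, Mrpl36, Mrpl40 or Mrpl42. Mrpl36, the counterpart of bacterial L36, was at 20.2, 24.3, 23.8 and 34.2 CPM in WT and at 39.9, 55.0, 53.5 and 56.0 CPM in Odc-/- TH1 libraries, without overlap, and rose by 0.66 to 1.23 on the log2 scale over the comparisons. Of the 29 large-subunit members with a bacterial counterpart, 20, 21, 20 and 23 rose in Odc-/- TH1, TH2, TH17 and Treg cells and 26, 19, 17 and 19 in Dohh-/- cells. Of the 19 without one, 14, 11, 11 and 14 rose in Odc-/- and 18, 11, 9 and 12 in Dohh-/- cells. Of all genes, 29.1, 29.9, 25.6 and 32.9% rose in Odc-/- and 25.9, 23.8, 27 and 28.4% in Dohh-/- cells.

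The central protuberance, where the large subunit touches the head of the small one and holds a transfer RNA in place of the 5S RNA of bacteria, was represented by 7 members. Of these, 6, 5, 5 and 6 rose in Odc-/- and 7, 5, 4 and 4 in Dohh-/- cells. The shares of all genes that rose were 29.1, 29.9, 25.6 and 32.9% in Odc-/- and 25.9, 23.8, 27 and 28.4% in Dohh-/- cells. Mrpl40 rose by 0.71 to 1.82 on the log2 scale, and the highest value, in Dohh-/- TH1 cells, was 1.33 without replicate 2. Mrpl18, the counterpart of the bacterial protein that binds 5S RNA, rose by 0.43 to 1.62, and its call in Odc-/- TH1 cells was lost without Odc-/- replicate 2 or WT replicate 1 (adjusted p = 0.0517 and 0.0709 in edgeR). The 6 members at the exit of the peptide tunnel (Mrpl17, Mrpl22, Mrpl23, Mrpl24, Mrpl45 and Mrpl47) gave 2 of 6 that rose in each of Odc-/- TH1, TH2 and TH17 cells and 5 of 6 in Odc-/- Treg cells. In Dohh-/- cells 5, 3, 3 and 3 of them rose. In Odc-/- TH1, TH2 and TH17 cells the count of 2 of 6 is near the 29.1, 29.9 and 25.6% of all genes that rose. Mrpl47 rose by 0.53 to 1.77 on the log2 scale in the other comparisons, and its log2 fold change in Odc-/- TH17 cells was 0.23 (adjusted p = 0.277 in edgeR). The highest value, in Dohh-/- TH1 cells, was 1.19 without replicate 2. The Dohh-/- Treg call of Mrpl47 was lost without Dohh-/- replicate 3 (0.0522), and its TH17 and Treg calls without both libraries with high myeloid markers (0.062 and 0.186).

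In the small subunit, Mrps28, the counterpart of bacterial S1, had the highest mean log2 fold change. Mrps28 (ENSMUSG00000040269.5, chr3:8802146-8923918, minus strand) was at 8.52, 10.5, 10.7 and 17.5 CPM in WT and at 18.3, 23.7, 28.0 and 24.9 CPM in Odc-/- TH1 libraries. In Dohh-/- TH1 libraries it was at 41.2, 58.6 and 17.4 CPM, against 7.45, 10.3 and 7.96 CPM in WT. The groups did not overlap in either case, and the log2 fold changes were 1.01 (SE 0.248, adjusted p = 0.00123 in edgeR) and 2.18 (SE 0.346, adjusted p = 3.35e-05), the latter 1.78 without replicate 2. Mrps28 rose in all 8 comparisons, as did Mrps12, the decoding-site protein, by 0.63 to 1.61 on the log2 scale, and Mrps7, of the head of the subunit, by 0.75 to 1.48. In Dohh-/- TH1 cells both were lower without replicate 2, at 0.93 and 0.94. The calls of Mrps12 in Dohh-/- TH2, TH17 and Treg cells were lost without any 1 of 3, 3 and 5 libraries (adjusted p = 0.0863 to 0.12, 0.0509 to 0.175 and 0.0592 to 0.152 in edgeR), and that of Mrps7 in Dohh-/- TH2 cells without any 1 of 4 (0.0553 to 0.0993). Without both libraries with high myeloid markers, Mrps12 and Mrps7 lost their calls in Dohh-/- TH17 (0.148 and 0.0551) and Treg cells (0.215 and 0.0593). Mrps24, the counterpart of bacterial S3, rose over 2-fold in Odc-/- Treg and in Dohh-/- TH1, TH2 and Treg cells, by 1.01, 1.64, 1.01 and 1.04, of which the TH1 value was 0.99 without replicate 2. In Dohh-/- TH17 cells its log2 fold change was 0.66 (adjusted p = 0.0616), and its call in Odc-/- TH2 cells was lost without Odc-/- replicate 4 or WT replicate 1 (0.0568 and 0.0848), and that in Dohh-/- Treg cells without both libraries with high myeloid markers (0.0938). Of the 17 small-subunit members with a bacterial counterpart, 16, 15, 15 and 16 rose in Odc-/- and 17, 13, 11 and 10 in Dohh-/- cells. Of the 9 without one, 6, 6, 5 and 8 rose in Odc-/- and 9, 6, 2 and 6 in Dohh-/- cells. Of all genes, 29.1, 29.9, 25.6 and 32.9% rose in Odc-/- and 25.9, 23.8, 27 and 28.4% in Dohh-/- cells. In Dohh-/- TH17 cells the 22.2% of these 9 members lay below the share of all genes.

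Mrps18b, one of the paralogous genes that descend from bacterial S18, had one of the highest mean log2 fold changes in Odc-/- cells. Its gene (ENSMUSG00000024436.16, chr17:35910379-35916389, minus strand) shares 30.5% of its exon length with Gm16279 on the opposite strand. In Treg cells it was at 10.9, 13.2, 15.3 and 27.5 CPM in WT and at 55.6, 51.1, 59.3 and 49.0 CPM in Odc-/- libraries. The groups were far apart, with a log2 fold change of 1.69 (SE 0.237, adjusted p = 1.39e-06 in edgeR). In Dohh-/- Treg cells the log2 fold change was 1.14, and in Dohh-/- TH17 cells it was 0.40 and did not pass (adjusted p = 0.11). The paralog Mrps18c rose in all 8 comparisons, by 0.44 to 1.68, and the highest value, in Dohh-/- TH1 cells, was 1.11 without replicate 2. Its calls in Dohh-/- Treg and Odc-/- TH2 cells were lost without WT replicate 3 and without Odc-/- replicate 3 (adjusted p = 0.0608 and 0.0643 in edgeR), and those in Dohh-/- TH17 and Treg cells without both libraries with high myeloid markers (0.0541 and 0.0965).

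Mrps5, a protein of the messenger RNA entrance, rose in some comparisons and fell in another. It was at 26.3, 27.1 and 30.1 CPM in WT and at 60.3, 66.9 and 32.0 CPM in Dohh-/- TH1 libraries. In TH17 cells it was at 45.5, 55.5 and 53.8 CPM in WT and at 38.6, 35.4 and 26.9 CPM in Dohh-/- libraries. The groups did not overlap in either subset. The log2 fold change was 0.93 (SE 0.207, adjusted p = 0.000904 in edgeR) in TH1 and -0.61 (SE 0.205, adjusted p = 0.0164) in TH17 cells. Without both TH17 libraries with high myeloid markers it was -0.42 (adjusted p = 0.307) in TH17 cells. The TH17 call was also lost without Dohh-/- replicate 3 or WT replicate 2 (adjusted p = 0.0944 and 0.0587). In Odc-/- cells Mrps5 rose in each subset, by 0.44 to 0.97, and the TH17 call was lost without Odc-/- replicate 4, WT replicate 1 or WT replicate 3 (adjusted p = 0.082, 0.0564 and 0.0869).

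Mrpl45 and Mrpl14 were the members that rose in no comparison. Mrpl45 (ENSMUSG00000018882.12, chr11:97315716-97329920, plus strand) tethers the tunnel exit to the inner mitochondrial membrane. In TH2 cells of the Odc table Mrpl45 was at 123, 147, 148 and 167 CPM in WT and at 99.0, 121 and 117 CPM in Odc-/- libraries, which did not overlap. In TH17 cells of the Dohh table it was at 93.7, 104 and 110 CPM in WT and at 78.4, 71.6 and 64.2 CPM in Dohh-/- libraries. Mrpl45 fell in Odc-/- TH1, TH2, TH17 and Treg cells by 0.29, 0.38, 0.32 and 0.27 on the log2 scale (adjusted p = 0.0199, 0.00549, 0.0149 and 0.0306 in edgeR) and in Dohh-/- TH17 cells by 0.52 (adjusted p = 0.0203). In Dohh-/- TH1 cells its log2 fold change was 0.03 (adjusted p = 0.896). Mrpl14 (ENSMUSG00000023939.7, chr17:45686322-45698495, plus strand), of the surface that faces the small subunit, was at 28.7, 47.5, 40.0 and 39.5 CPM in WT and at 24.1, 31.5 and 30.4 CPM in Odc-/- TH2 libraries. The groups overlapped, and Mrpl14 fell by 0.44 (adjusted p = 0.0264) there and by 0.37 (adjusted p = 0.0413) in Odc-/- Treg cells. Mrpl9 fell in Dohh-/- TH17 cells by 0.48 (SE 0.119, adjusted p = 0.00203) and rose in Odc-/- Treg cells by 0.20 (adjusted p = 0.0417). The calls for Mrpl45 and Mrpl14 were each lost without at least 1 single library, with values in the same direction. For Mrpl45 the adjusted p was 0.0649 in Odc-/- TH1 and 0.0529 in Odc-/- TH17 cells without WT replicate 2, 0.0528 in Odc-/- TH2 cells without Odc-/- replicate 2, 0.16 in Odc-/- Treg cells without WT replicate 2 and 0.0901 in Dohh-/- TH17 cells without Dohh-/- replicate 3. For Mrpl14 it was 0.146 in TH2 and 0.201 in Treg cells without Odc-/- replicate 2. The Mrpl9 call in Odc-/- Treg cells was lost in DESeq2 (adjusted p = 0.148), with RLE size factors (0.162), with total counts alone (0.163), without a low-count filter (0.363), with only the 2 groups compared (0.232), with a limma voom block of the replicate number (0.0506) and without any 1 of 4 libraries (0.0617 to 0.156). The calls for Mrpl45 and Mrpl9 in Dohh-/- TH17 cells were lost without both libraries with high myeloid markers (adjusted p = 0.301 and 0.0884). Mrps33, a small-subunit protein without bacterial counterpart, was among the lowest in Odc-/- cells, with log2 fold changes of -0.07 in TH1 to 0.30 in Treg cells, none of which passed (lowest adjusted p = 0.0536). It rose in Dohh-/- TH1 and TH2 cells by 0.90 and 0.76, and the TH2 call was lost without WT replicate 1 (adjusted p = 0.083). The falls of Mrpl45, Mrpl14 and Mrpl9 were below 1.5-fold. In simulated data, 40% of 1.5-fold decreases were called at the depth and replication of Odc-/- TH1 cells and 20% at those of Dohh-/- TH1 cells. The simulation gave all genes the same assumed spread, drew libraries independently and changed few genes. Its rates may therefore not hold for these data.

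**Figure D3:**
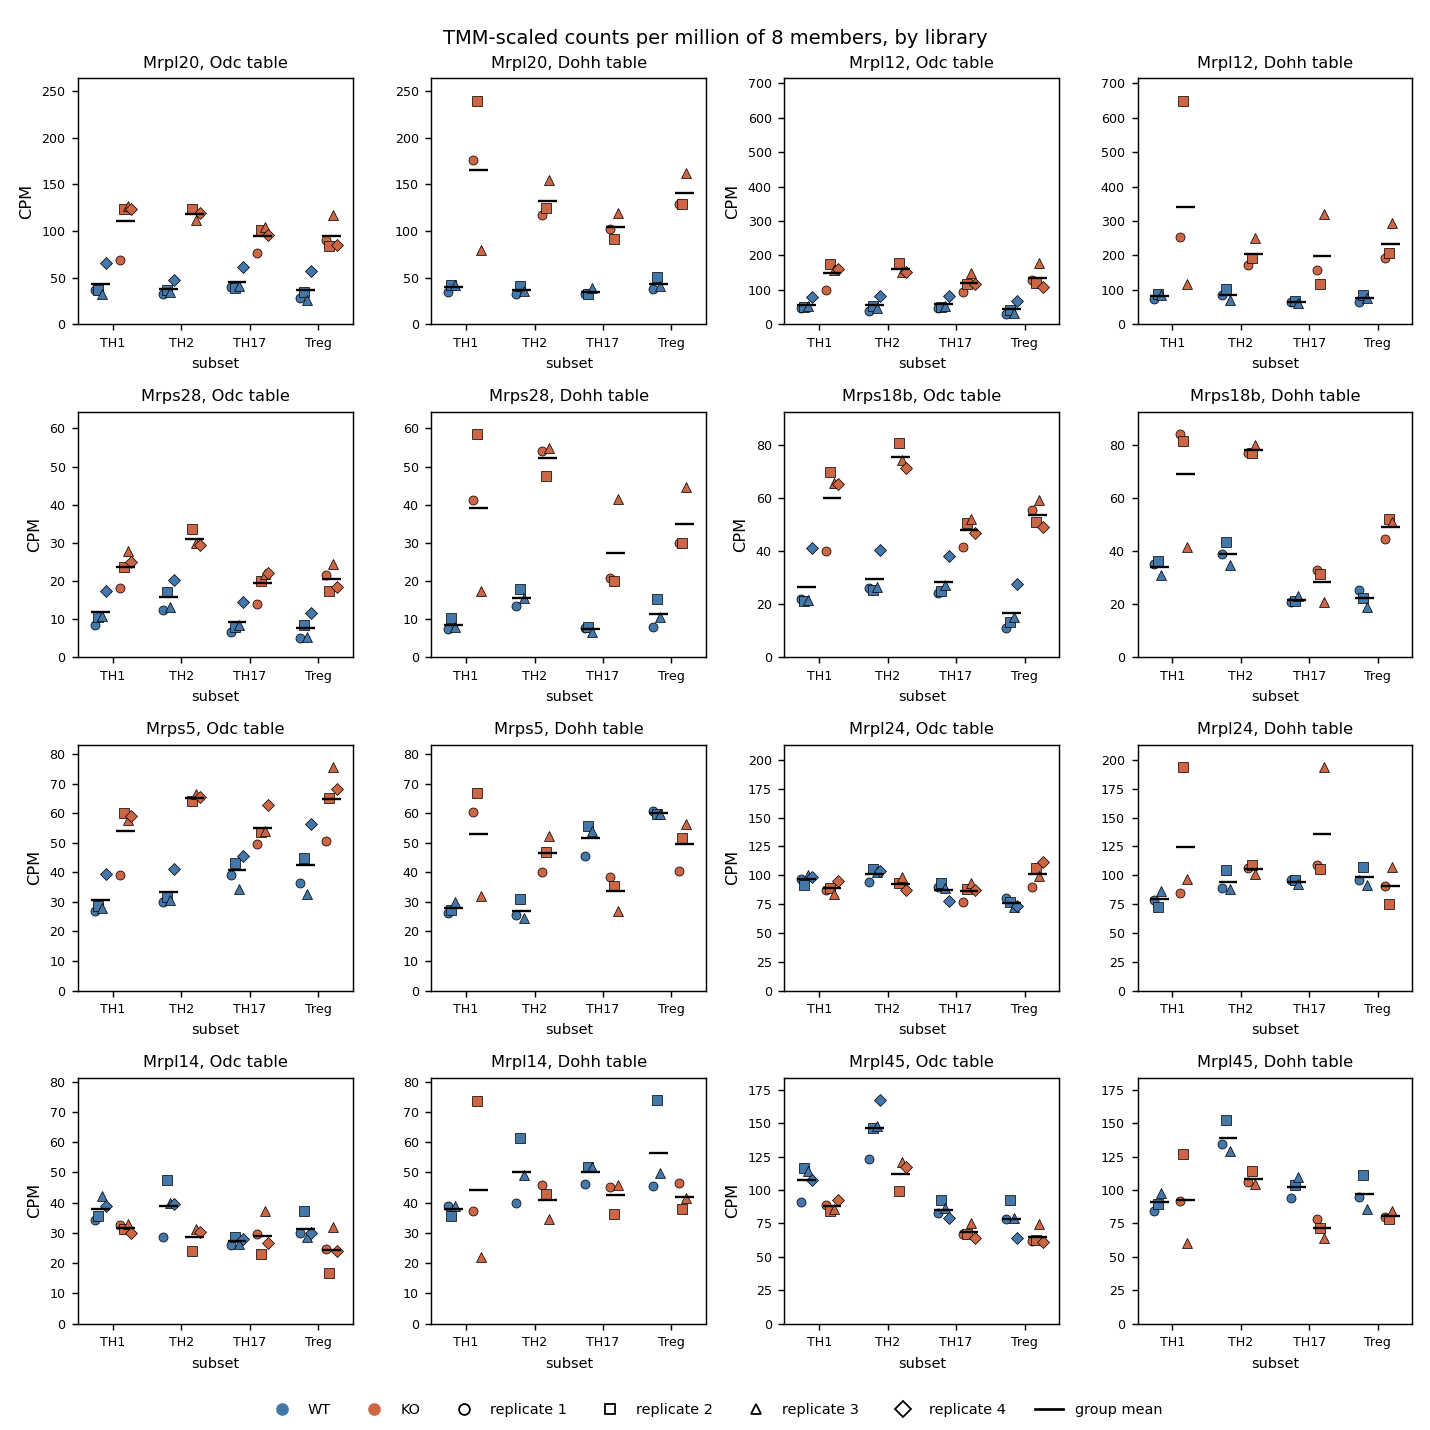
CPM after TMM scaling (y axis, starting at 0) of Mrpl20, Mrpl12, Mrps28, Mrps18b, Mrps5, Mrpl24, Mrpl14 and Mrpl45 in each library, by subset (x axis), for the Odc and the Dohh table. Blue symbols are WT and orange symbols labelled KO libraries, the shape gives the replicate number and bars give group means. Mrpl20 and Mrpl12 lie above WT in every subset, Mrps5 lies above WT in TH1 and below it in TH17 cells of the Dohh table, and Mrpl45 lies below WT in Odc-/- TH2 and TH17 cells.

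With all libraries, the effect of the labelled KO differed between subsets for a smaller share of members than of all genes. The difference between these shares was not tested. The interaction of genotype and subset passed for 4 members in the Odc table, where it passed for 34.8% of all genes, and for 4 in the Dohh table, against 17.9% of all genes. In the Odc table these were Mrpl24 (adjusted p = 0.000824 in edgeR), Mrpl1 (0.00896), Mrpl52 (0.0167) and Mrpl48 (0.0441). Mrpl24, a protein beside the tunnel exit, was at 79.9, 77.1, 72.4 and 73.3 CPM in WT and at 89.5, 106, 99.3 and 111 CPM in Odc-/- Treg libraries, without overlap, and at 96.9, 91.2, 100 and 98.6 against 87.4, 89.1, 83.6 and 95.3 CPM in TH1 cells. Its log2 fold change was 0.42 in Treg cells (adjusted p = 5.24e-05) and -0.12 in TH1 cells (adjusted p = 0.186). Mrpl24 shares 26.3% of its exon length with Rrnad1 on the opposite strand. In the Dohh table the members were Mrps5 (adjusted p = 0.00082), Mrpl32 (0.029), Mrpl9 (0.0313) and Mrpl30 (0.0423). Mrpl48 was named after its value was seen. With a replicate number of a genotype left out, the calls of Mrpl24 and Mrps5 held (highest adjusted p = 0.0107 and 0.0218), whereas each of the others was lost at least once (highest adjusted p of 0.0523 for Mrpl1, 0.0711 for Mrpl52, 0.15 for Mrpl48, 0.228 for Mrpl32, 0.235 for Mrpl9 and 0.27 for Mrpl30). With the replicate number as a block the interaction passed for 14 members and 43.2% of all genes in the Odc table, and with a block for the replicate number within each genotype, added after seeing the data, for 26 members and 52.9%. In the Dohh table these blocks gave 4 and 3 members, against 19.2 and 19% of all genes. These counts also moved with single replicates. Without the WT libraries of replicate 4 the interaction passed for 17 members and 40.9% of all genes in the Odc table. Without the Dohh-/- libraries of replicate 3 it passed for 42 of 75 members in the Dohh table, a larger share than the 34.9% of all genes. It passed for 1 member and 21.9% of all genes without the Odc-/- libraries of replicate 4. In the Dohh table it passed for 1 member without the Dohh-/- libraries of replicate 2 (15.3% of all genes) or any 1 replicate of the WT libraries (6.33 to 6.86%).

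The Dohh and Odc effects (labelled KO against WT) were set against each other in 1 fit of both tables. In TH1 cells the Dohh effect was larger for 37 members and smaller for 0, where 13.2 and 9.58% of all genes passed in these directions, with a median difference of 0.70 on the log2 scale. In TH2 cells it was larger for 2 members and smaller for 0 (9.16 and 9.05% of all genes), in TH17 cells larger for 6 and smaller for 3 (13.2 and 11.4%), and in Treg cells larger for 2 and smaller for 3 (15.2 and 14.8%). Without the Dohh-/- TH1 library of replicate 2, the effects differed for 4 members in TH1 cells, and for 5 in TH2, 14 in TH17 and 9 in Treg cells, against 15.1, 20.8, 27.7 and 33.2% of all genes. With another replicate number of a genotype left out, they differed for 15 to 55 members in TH1 cells, against 14.7 to 35% of all genes. The tables were counted separately, and differences between experiments cannot be told apart from differences between the targeted genes.

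Mrpl39, a large-subunit protein without bacterial counterpart, had a larger Dohh effect in each subset with all libraries. It was at 37.6, 36.6, 34.0 and 44.3 CPM in WT and at 35.5, 40.6, 41.4 and 40.4 CPM in Odc-/- Treg libraries, which overlapped, and at 27.8, 28.1 and 30.6 against 43.9, 46.7 and 46.7 CPM in the Dohh table, which did not. The Dohh effect exceeded the Odc effect by 0.64, 0.56, 0.72 and 0.66 in TH1, TH2, TH17 and Treg cells (adjusted p = 0.0085, 0.0278, 0.00298 and 0.00394 in edgeR). Mrpl18 differed by 1.15 in TH1 and 1.17 in Treg cells, Mrps25 by 1.28, 0.97 and 1.09 in TH1, TH2 and TH17 cells, Mrpl54 by 1.69 and Mrpl32 by 1.03 in TH1 cells. Without the Dohh-/- TH1 library of replicate 2, the TH1 differences of Mrpl39, Mrps25 and Mrpl54 were 0.41, 0.60 and 0.76 and did not pass (adjusted p = 0.0996, 0.147 and 0.0708 in edgeR), and those of Mrpl18 and Mrpl32 were 0.80 and 0.82 and passed (0.0215 and 0.00373). In TH2 cells the difference of Mrpl39 was lost without the WT libraries of replicate 1 of the Dohh table (0.127) or the Odc-/- libraries of replicate 2 (0.0796), and that of Mrps25 without any of 8 replicate numbers of a genotype (0.0523 to 0.106). In the opposite direction, the Dohh effect lay below the Odc effect for Mrps5 (-0.99) and Mrpl9 (-0.53) in TH17 cells and for Mrps6 (-1.03), Mrps5 (-0.84) and Mrpl9 (-0.40) in Treg cells. The Treg difference of Mrpl9 was lost without the Dohh-/- libraries of replicate 1 or 2 or the Dohh WT libraries of replicate 2 (0.0626 to 0.0995). Of the exon length of Mrps25, 69.8% is shared with Nr2c2 on the opposite strand. Mrps36, named after its values were seen, rose in the 4 Dohh comparisons and passed in none of the Odc comparisons. The difference between its effects passed in TH1 cells (1.09, adjusted p = 0.00387 in edgeR) and not in TH2, TH17 or Treg cells (adjusted p = 0.206, 0.184 and 0.0902).

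**Figure D4:**
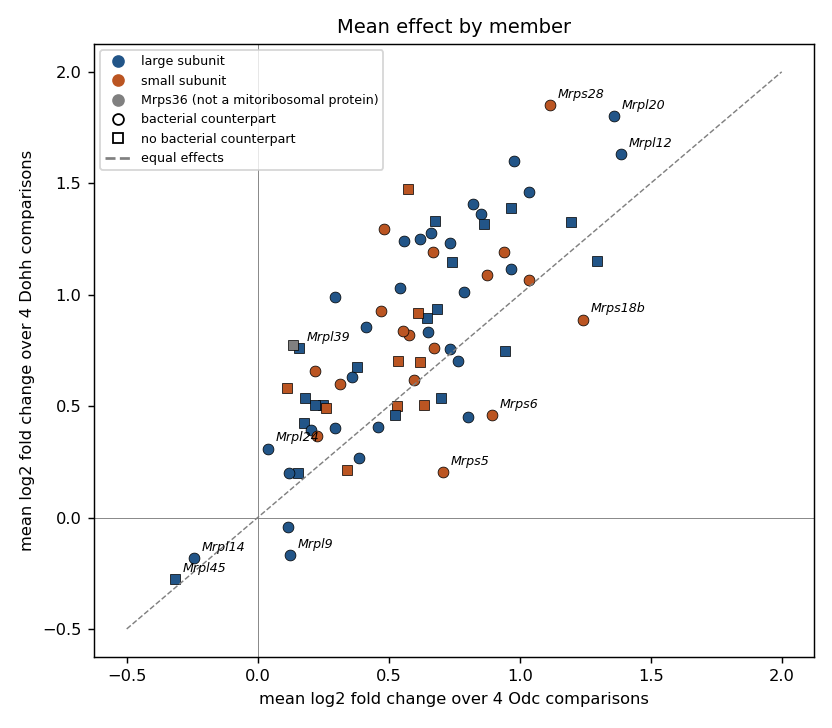
Mean log2 fold change over the 4 Odc comparisons (x axis) and over the 4 Dohh comparisons (y axis) for the 75 tested members, coloured by subunit, with circles for proteins that have a bacterial counterpart and squares for those that have none. The dashed line marks equal effects. Most points lie to the upper right of 0, with Mrps28, Mrpl20 and Mrpl12 at the upper end and Mrpl14 and Mrpl45 below 0 on both axes.

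Among WT cells, differences of members between subsets were counted next. A difference between the 4 WT subsets passed for 36 members of the Odc and 7 of the Dohh table, where it passed for 71.1 and 40.1% of all genes. With any 1 replicate number of a genotype left out, it passed for 18 to 44 and for 1 to 16 members, against 58.5 to 73.9% and 21.3 to 53.2% of all genes. With a block for the replicate number within each genotype it passed for 55 members and 81.5% of all genes in the Odc table and for 6 and 41% in the Dohh table. Against the mean of the other 3 subsets, WT TH2 cells were higher for 25 members and lower for 0 (22.7 and 20.2% of all genes), and WT Treg cells were higher for 1 and lower for 25 (24.2 and 24%) in the Odc table. In the Dohh table the same comparisons gave 3 and 1 for TH2 (13.1 and 10.3%) and 2 and 0 for Treg cells (11.8 and 11.1%). The median difference of the members was 0.20 and 0.12 on the log2 scale for TH2 cells in the Odc and Dohh tables, and -0.18 and 0.10 for Treg cells. Mrpl45 was the member with the smallest p in the Odc table, higher in TH2 by 0.71 and lower in Treg cells by 0.49 on the log2 scale (adjusted p = 6.14e-08 and 3.45e-05 in edgeR). It was higher in TH2 cells of the Dohh table as well, by 0.52 (adjusted p = 0.0102). There its difference between the 4 WT subsets (adjusted p = 0.0308 in edgeR) was lost without WT replicate 1, 2 or 3 (0.31, 0.321 and 0.148). It was also lost without the Dohh-/- libraries of replicate 1 (0.0758). Mrps16 was higher in TH1 and TH2 by 0.33 each, and Mrpl52 by 0.39 and 0.45, in the Odc table. Mrps5 led in the Dohh table, higher in WT Treg by 0.83 and in TH17 by 0.53.

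Levels per kilobase of exon differed widely between members. Over WT libraries, Mrps21, Mrpl18 and Mrpl52 were the highest in the Odc table, at 55.2, 46.8 and 41.4 CPM per kb, and Mrpl52, Mrpl34 and Mrps21 in the Dohh table, at 82.5, 71.4 and 67.5 CPM per kb. Of the members tested, Mrpl47 and Mrps25 were the lowest in both, at 3.43 and 3.45 and at 2.98 and 2.76 CPM per kb. Lengths are of all annotated exons of a gene, and a gene with long, rarely used exons appears low on this scale. Mrpl53 was at 0.193 CPM per kb in the Odc and 0 in the Dohh table and shares 88% of its exon length with another gene on its strand. Mrpl53 lay at 0 to 0.569 CPM in WT libraries of the Odc table, about the level that 3 counts allow there, 0.310 to 0.444 CPM.

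Related gene lists are set here and below beside all genes, with all libraries. Unlike the members, the lists were not counted again without Dohh-/- TH1 replicate 2 or the libraries with high myeloid markers. In Odc-/- TH1, TH2, TH17 and Treg cells, 29.1, 29.9, 25.6 and 32.9% of all genes rose and 27.7, 29.3, 22.2 and 26.9% fell. In Dohh-/- cells, 25.9, 23.8, 27 and 28.4% rose and 24.1, 21.5, 24.9 and 25% fell. The mitoribosomal proteins Dap3, Ptcd3, Chchd1, Aurkaip1 and Gadd45gip1 have symbols outside the rule. Of these 5 genes, 3, 2, 2 and 4 rose and 1, 0, 1 and 1 fell in Odc-/- TH1, TH2, TH17 and Treg cells, and 3, 2, 0 and 2 rose and 0, 0, 0 and 1 fell in Dohh-/- cells. Subunits of the respiratory chain that are encoded in the nucleus rose for 50, 45, 65 and 62 of 81 and fell for 7, 10, 2 and 3 in Odc-/- cells, and rose for 62, 42, 53 and 41 of 79 and fell for 2, 5, 3 and 3 in Dohh-/- cells. Messenger RNAs of the mitochondrial genome, which the mitoribosome translates, rose for 5, 6, 5 and 8 of 8 tested in Odc-/- and for 1, 4, 6 and 6 in Dohh-/- cells, and 1 fell in Dohh-/- TH1 cells. The one that fell there was mt-Co1, the most abundant of them, by 1.44 on the log2 scale (adjusted p = 0.00111 in edgeR). Their summed share of counts was lower in Dohh-/- TH1 cells, at 0.775, 0.343 and 0.718% against 1.35, 1.22 and 1.1% in WT, without overlap. The ratio of the mean shares of labelled KO to WT was 0.501, 1.16, 1.1 and 1.03 in Dohh-/- TH1, TH2, TH17 and Treg cells and 1.17, 1.23, 1.46 and 2.06 in Odc-/- cells, with no test made on these sums. The libraries were made from polyadenylated RNA, and tails of mitochondrial messenger RNAs are short.

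Genes that serve the mitoribosome were called in both directions. Of 29 assembly and ribosomal RNA modification factors, 16, 16, 10 and 17 rose and 2, 2, 2 and 1 fell in Odc-/- cells, and 16, 10, 7 and 9 rose and 3, 2, 4 and 2 fell in Dohh-/- cells. Of 14 translation factors, 10, 8, 5 and 10 rose and 2, 3, 1 and 1 fell in Odc-/- cells, and 8, 6, 4 and 6 rose and 0, 1, 1 and 0 fell in Dohh-/- cells. Of 20 mitochondrial aminoacyl-tRNA synthetases, 10, 11, 6 and 13 rose and 3, 3, 1 and 1 fell in Odc-/- cells, and 4, 5, 3 and 9 rose and 1, 1, 2 and 2 fell in Dohh-/- cells. Of 17 regulators of mitochondrial transcription and biogenesis, 6, 8, 3 and 9 rose and 1, 2, 2 and 3 fell in Odc-/- cells, and 4, 5, 5 and 7 rose and 2, 3, 2 and 2 fell in Dohh-/- cells. Some of these shares lay near or below those of all genes. In Dohh-/- TH1, TH2 and TH17 cells 20, 25 and 15% of the synthetases rose, against 25.9, 23.8 and 27% of all genes. In Dohh-/- TH17 cells 24.1% of the assembly factors rose. In Odc-/- TH17 cells 17.6% of the regulators rose, against 25.6% of all genes. Of the 8 genes of polyamine synthesis and hypusine, 5, 7, 5 and 5 rose in Odc-/- and 6, 6, 5 and 7 in Dohh-/- cells, and 1 fell, in Odc-/- TH17 cells. Eif5a passed as higher in 7 of 8 comparisons, with a log2 fold change of 0.34 in Odc-/- TH1 cells (adjusted p = 0.0796 in edgeR). Myc, a regulator of ribosome production, fell in Odc-/- TH17 and Treg cells by 0.35 and 0.33 and passed in no other comparison.

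Cytosolic ribosomal proteins, which form the ribosome of the cytoplasm, were called in both directions. In Odc-/- TH1, TH2, TH17 and Treg cells, 6, 0, 53 and 74 of 79 rose and 2, 27, 0 and 0 fell. In Dohh-/- cells, 36, 0, 2 and 0 of 77 rose and 0, 9, 3 and 14 fell. Their median log2 fold change was between -0.40 and 0.65, whereas that of the members was 0.44 or more in each comparison. The 0.65 was in Dohh-/- TH1 cells. There, cytosolic ribosomal proteins held 11.5, 20.1 and 12.3% of counts in Dohh-/- replicates 1, 2 and 3, against 11.2, 11.6 and 13.3% in WT. Only replicate 2 lay above every WT library.

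**Figure D5:**
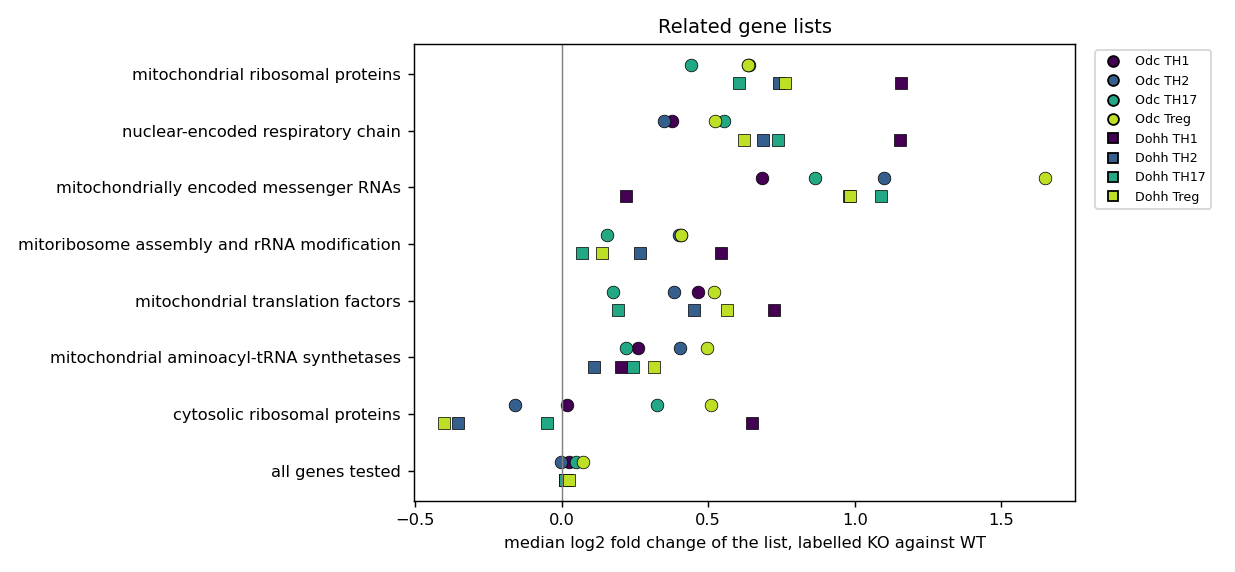
Median log2 fold change, labelled KO against WT (x axis), of the members and of related gene lists (y axis) in each comparison with all libraries. Circles are Odc and squares Dohh comparisons, coloured by subset. The members and each mitochondrial list shown lie above 0 in all 8 comparisons, whereas cytosolic ribosomal proteins lie on both sides of 0.

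Log2 fold changes were higher for shorter genes in these libraries, and the members are short, with a median of 2533 bases of exon against 4113 and 4102 for all genes tested in the Odc and Dohh tables. Among genes no longer than that median, the median log2 fold change was 0.129, 0.045, 0.254 and 0.321 in Odc-/- TH1, TH2, TH17 and Treg cells and 0.468, 0.257, 0.351 and 0.222 in Dohh-/- cells, below the medians of the members. Spearman's rho of log2 fold change with exon length, across genes and therefore a description, was -0.23 to -0.02 over the 75 members and -0.24 to -0.05 over all genes. The part of length in the member values was not tested further.

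Promoters from RefSeq (250 bases before to 50 after the start, GRCm38.p6) matched 66 of the 75 tested members by symbol. Motifs for YY1, NRF1 (a short and a palindromic site), ETS factors, E-box factors and the letters CCAAT were searched on both strands. The letters AAGATGGC, the core of YY1 sites, were in 12 member promoters (18.2%), against 5.3% of the promoters of tested genes and 2.7% of all 32851 promoters. In 8 members (12.1%) they lay within the 50 bases after the start, against 2.87% of tested genes and 1.14% of all promoters. The windows around them are printed to show the shared letters, in capitals, which hold an ATG. They lie at chr10:95501904-95501933, chr11:115604147-115604176, chr6:71823743-71823772, chr11:5707652-5707681, chr19:6057721-6057750, chr17:46111004-46111033, chr4:107066822-107066851 and chr13:99344789-99344818, in the order printed, with Mrps7, Mrps18a and Mrps27 on the plus strand and the others on the minus strand.
Mrpl42: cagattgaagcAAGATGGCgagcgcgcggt
Mrps7: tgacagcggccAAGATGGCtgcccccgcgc
Mrpl35: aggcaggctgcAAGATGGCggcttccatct
Mrps24: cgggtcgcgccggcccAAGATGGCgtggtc
Mrpl49: gttgaggcgccAAGATGGCagcagcggtgt
Mrps18a: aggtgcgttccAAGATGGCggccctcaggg
Mrpl37: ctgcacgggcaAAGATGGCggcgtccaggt
Mrps27: tggtgcgctccAAGATGGCggctcccatgg

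The median of the mean log2 fold changes was 0.88 over the 12 members with AAGATGGC and 0.63 over those without it. The shorter site TGCGCA of NRF1 was in 21 promoters (31.8%, against 16% of tested genes), the palindromic NRF1 site, which holds it, in 3 (4.5%, against 2.4%), and the ETS letters CCGGAAGT in 11 (16.7%, against 9.3%). Shares for the E-box CACGTG were 6.1 and 11.7%, and for CCAAT 36.4 and 42.8%. Of all promoters, 7.8% held TGCGCA, 1% the palindromic NRF1 site, 3.9% CCGGAAGT, 7.2% CACGTG and 37.4% CCAAT. Members with and without a motif had medians of 0.68 and 0.66 for TGCGCA, 0.30 and 0.70 for the palindromic NRF1 site, 0.63 and 0.70 for CCGGAAGT, 0.96 and 0.65 for CACGTG, and 0.70 and 0.65 for CCAAT. The matches are letters in a window of RefSeq starts, 48 of which lay within 100 bases of the start of the gene in the annotation used for coordinates. In 17 members, another protein-coding gene starts within 1 kb in the opposite direction.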

How the data were processed

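RNA was sequenced from T cells polarized in vitro, with a stranded mRNA kit on an Illumina HiSeq. The deposited values are raw counts per gene, whole numbers that the authors made with STAR and featureCounts on mm10, with deepTools and DESeq2 also listed in the submitters' processing notes. The annotation release and strand setting are not given in the sources used here. Odc-/- TH2 replicate 1 was not analysed here. Of 47937 gene identifiers, 47310 matched GENCODE vM21 (GRCm38), and the other 627 held 0.0385 and 0.0131% of the counts of the Odc and Dohh tables.

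Each table was fitted separately with edgeR 4.0.16 in R 4.3.3. Genes passed filterByExpr over 8 groups (13839 and 13897 genes), libraries were scaled by TMM, and robust quasi-likelihood tests with Benjamini-Hochberg adjustment over all genes were called at 0.05. CPM are per TMM-scaled library total. Adjusted p-values rest on 3 or 4 libraries per group. A floor of 3 counts, the 95% limit that a count of 0 allows for counting error only, corresponds to 0.31 to 0.499 CPM over the Odc libraries and to 0.226 to 0.473 CPM over the Dohh libraries. Odc and Dohh effects were compared in 1 fit of the 12924 genes that passed in both tables. In simulated data, 96 and 90% of 2-fold increases and decreases were called at the depth of Odc TH1 (13140 genes) and 78 and 64% at that of Dohh TH1 (13267 genes). The simulation gave all genes the same assumed spread, drew libraries independently and changed few genes, so its rates may not hold for these data. Among 69 pairs of libraries within groups, none agreed within counting noise.

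The members, lists, tests and alternatives were chosen with earlier results of these data known. Members named with values are the 19 past 2-fold in at least 4 comparisons, the 5 highest and 5 lowest mean log2 fold changes in each table, the 3 highest and 3 lowest levels per kb, the 3 smallest p for the interaction, the WT subsets and the difference of the effects, and those dropped or filtered, 40 in all. Alternatives were RLE size factors, total counts alone, no low-count filter, only the groups compared, a replicate block, the same within each genotype, the replicate number within a genotype as a random block with limma voom 3.58.1, DESeq2 1.42.0 and each library left out. Tables and figures were made with Python 3.11.15, pandas 2.3.3, numpy 2.4.6 and matplotlib 3.10.9.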

Additional observations from a re-analysis of the deposited data

Results flagged for a closer look

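Single libraries stood apart from their group by Dixon's test in 12 of 63 groups of values tested. These were the values of 8 members and the members' share of counts, taken over the same libraries. Members differed together within a library, so the groups are not independent and the 12 cannot be set against a chance rate. The test was made for groups of 4 libraries, and groups of 3, which include every Dohh group, were not tested. Most were WT libraries of replicate 4 in the Odc table, which were high for Mrpl20 in TH1 (65.58 CPM, next 36.98) and TH17 (61.0 CPM, next 40.59), for Mrpl12 in TH17 (81.21 CPM, next 52.23), for Mrps18b in TH1 (41.01 CPM, next 21.82) and TH2 (40.53 CPM, next 26.33), and for Mrps5 in TH1 (39.38 CPM, next 28.45) and TH2 (41.11 CPM, next 31.61). The Odc-/- TH1 library of replicate 1 was low for Mrpl20 (68.56 CPM, next 123.3), Mrps18b (39.87 CPM, next 65.08) and Mrps5 (39.11 CPM, next 57.7). The Odc-/- Treg library of replicate 3 was high for the members' share of counts (0.440746%, next 0.365414%) and for Mrpl45 (74.82 CPM, next 62.9).

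Effects that differed between subsets passed for 4 members in each table, smaller shares than those of all genes given above. In the Odc table they were led by Mrpl24 (adjusted p = 0.000824 in edgeR), Mrpl1 (0.00896) and Mrpl52 (0.0167), and in the Dohh table by Mrps5 (0.00082), Mrpl32 (0.029) and Mrpl9 (0.0313). The calls of Mrpl1, Mrpl52, Mrpl32 and Mrpl9 were each lost with a replicate number of a genotype left out (highest adjusted p = 0.0523, 0.0711, 0.228 and 0.235).

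The Dohh effect lay above the Odc effect for 37, 2, 6 and 2 members in TH1, TH2, TH17 and Treg cells and below it for 0, 0, 3 and 3. In TH2, TH17 and Treg cells these were smaller shares, in both directions, than those of all genes given above. Among the genes with the smallest p, the difference was 1.03 for Mrpl32, 1.15 for Mrpl18 and 1.69 for Mrpl54 in TH1 cells, and 0.56 for Mrpl39 and 0.97 for Mrps25 in TH2 cells. In TH17 cells it was -0.53 for Mrpl9, 0.72 for Mrpl39 and -0.99 for Mrps5, and in Treg cells 1.17 for Mrpl18, -1.03 for Mrps6 and 0.66 for Mrpl39. In TH1 cells 4 members passed without the Dohh-/- library of replicate 2, which had the lowest TMM factor of its group, 0.7525. Without it the TH1 difference was 0.82 for Mrpl32, 0.80 for Mrpl18 and 0.76 for Mrpl54, the last with an adjusted p of 0.0708 in edgeR.

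The genes left out by the rule, counted in the Odc table alone, were higher in most Odc-/- subsets too. Mrpl2 rose by 0.72, 0.57, 0.74 and 0.89 on the log2 scale in TH1, TH2, TH17 and Treg cells, and Mrpl33 by 0.25, 0.60 and 0.86 in TH1, TH17 and Treg cells, whereas its log2 fold change in TH2 cells was 0.10 and did not pass (adjusted p = 0.451 in edgeR).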

How the results depend on the processing

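No called log2 fold change of a named member, and no median of the members, changed direction under any alternative run. Other members were not checked for direction, and no median was taken in DESeq2. Of 202 group values under settings other than a library left out, 191 stayed within set limits. With 1 library or replicate number left out, 205 stayed within them and 62 moved. The limits were the SD between libraries for medians and shares, and a set ratio for counts. They were wide. A fall of the Dohh-/- TH1 median from 1.16 to 0.73 stayed within them. So did falls in members that rose from 71 to 56 in Dohh-/- TH1, 40 to 29 in TH17 and 48 to 34 in Treg cells. Of 4329 values of named members, 4066 kept their side of the threshold, 203 lost it and 60 gained it. Without both Dohh-/- libraries with high myeloid markers, a choice made after seeing the data, 17 members rose in TH17 and 13 in Treg cells, 11 and 10 of them over 2-fold (9.88 and 10.2% of all genes), with 1 Dohh-/- library left in each. With total counts alone, 29 members passed 2-fold in Dohh-/- TH1 cells, where 10.4% of all genes rose so far. With RLE size factors the interaction passed for 7 members in the Odc table (35.6% of all genes), and without a low-count filter the effects of Dohh and Odc differed for 21 members in TH1 cells (10.3%). The causes were not tested. With the replicate block, 7 members passed 2-fold in Odc-/- TH2 cells (10.9% of all genes) and the interaction passed for 14 members in the Odc table. Samples of WT and KO with the same number did not deviate together in every pair (correlations of -0.0858 to 0.196). Same-numbered WT libraries of the Odc table did so across subsets (lowest correlations of 0.206 to 0.338), whereas this fell below 0.1 for some numbers of Odc-/- (0.0339), Dohh WT (0.00521) and Dohh-/- libraries (-0.265). With the number within a genotype as a block, chosen after seeing the data, the interaction passed for 26 members and differences between WT subsets for 55 in the Odc table. The correlation estimated by limma within a replicate number of a genotype was 0.309 and 0.0244 in the Odc and Dohh tables.

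With single libraries or replicate numbers left out, members over 2-fold ranged from 8 to 23, 7 to 18, 2 to 7 and 9 to 22 in Odc-/- TH1, TH2, TH17 and Treg cells and from 19 to 58, 14 to 23, 13 to 20 and 13 to 28 in Dohh-/- cells, where 7.03 to 16.3% and 10.3 to 17.9% of all genes did. The highest Odc counts came without WT replicate 4, and 22 came without Odc-/- TH1 replicate 1. The lowest came without Odc-/- TH1 replicate 3, WT TH2 replicate 3, WT Treg replicate 1 and, in TH17, any of WT replicates 1 and 2 and Odc-/- replicate 3. In Dohh-/- Treg cells 13, 15 and 16 passed without WT replicate 3, WT replicate 1 and Dohh-/- replicate 3. Members that rose in Dohh-/- TH2 cells ranged from 29 to 44, with 29, 31 and 33 without WT replicate 1, Dohh-/- replicate 3 and WT replicate 3. Differences between WT subsets ranged from 18 to 44 and from 1 to 16 in the Odc and Dohh tables (58.5 to 73.9% and 21.3 to 53.2% of all genes), the interaction from 1 to 17 and from 1 to 42 (21.9 to 40.9% and 6.33 to 34.9%), and differences between the Dohh and Odc effects from 4 to 55, 0 to 5, 5 to 15 and 4 to 9 in TH1, TH2, TH17 and Treg cells (14.7 to 35, 11 to 22.4, 19 to 27.7 and 24.8 to 33.2% of all genes). At this depth and replication, and with the assumed spread of the simulation, 40% of simulated 1.5-fold increases were called in Odc TH1 and 10% in Dohh TH1.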
